A study of Mus musculus with 42 samples.

Results

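The *Hox* genes of the mouse were described across brown fat (BAT), white fat (WAT) and liver. They were taken as every probe set of the Affymetrix mouse genome array that is annotated to a single gene with a symbol from *Hoxa* to *Hoxd* and a number. This gave 48 of 45037 probe sets without controls, which stand for 33 of the 39 *Hox* genes. The others were not analysed here. The 48 were used without a filter on low values. RNA came from male ddY mice, 5 weeks old on arrival and kept for 1 week before the experiment, and the labels give no altered genotype. One group was given VAAM, an amino acid mixture modelled on that of *Vespa* hornets, as a 1.8% solution, and the other was given water, both at 37.5 μL per g of body weight in 5 daily administrations with tissue taken 4 h after the last. Each of the 6 groups (BAT, WAT and liver with VAAM or water) holds 7 arrays, 1 for each numbered mouse. The fat depot from which the WAT came is not named in the labels.

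*Hox* genes encode homeodomain transcription factors that give cells along the body axis their positional identity. They lie in 4 clusters, *Hoxa* on chromosome 6, *Hoxb* on chromosome 11, *Hoxc* on chromosome 15 and *Hoxd* on chromosome 2, and the paralogue number rises from the 3′ end, where genes act toward the head, to the 5′ end, where genes act toward the tail. Adult mesenchymal cells, among them the progenitors of adipocytes, keep much of the *Hox* pattern of the place where they arose, and fat depots are known to differ in it.

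The values are the authors' summaries (DFW, a distribution free weighting of the probes) on a log scale, taken as log2, so that a difference of 1 would be a doubling on an uncompressed scale. In these data it is given only as a difference of values. Within a tissue the arrays were nearly identical in most probe sets after this summary. The median SD over 14 arrays was 1.06e-05 in BAT, 1.41e-05 in WAT and 1.08e-05 in liver over all probe sets. Between tissues the median size of a difference was 0.22 for BAT against WAT. For this reason limma, fitted to all probe sets with Benjamini-Hochberg adjustment, called 99.8% of them between BAT and WAT, 99.8% between BAT and liver and 99.9% between WAT and liver, and its p separates nothing. By this p alone 37.0% of all probe sets were higher and 62.9% lower in BAT than in WAT, 55.4% and 44.3% in BAT than in liver, and 62.7% and 37.2% in WAT than in liver. A gene was counted as higher or lower only where its adjusted p was under 0.05 and its difference was at least 1, and the counts over all *Hox* genes stand beside the share of all probe sets that passed the same rule. Of the arrays, 4 (BAT VAAM mice 3 and 5, WAT VAAM mouse 1 and liver VAAM mouse 6) stood apart on principal components, and leaving them out changed no *Hox* call. The best known markers followed the labels. *Ucp1*, the uncoupling protein of brown fat, averaged 14.2 in BAT, 6.36 in WAT and 6.39 in liver, and *Lep*, the gene for leptin, 7.14 in BAT, 10.9 in WAT and 6.39 in liver, while albumin averaged 6.57 in BAT, 7.04 in WAT and 15 in liver. Other markers of a fat were as high or higher in liver. Of the brown fat list, *Dio2* averaged 7.004 in BAT, 6.81 in WAT and 7.03 in liver and *Elovl3* 8.53, 6.22 and 9.51 in the same order, and of the white fat list *Agt* averaged 7.09, 9.96 and 11.4.

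The gene that differed most between the fats was *Hoxc8*, a trunk gene that in the mouse is known to repress *Cebpb*, a regulator of brown fat formation. The lowest, median and highest *Hoxc8* values were 6.12, 6.13 and 6.13 in BAT of VAAM mice and 6.12, 6.13 and 6.13 in BAT of water mice. In WAT they were 10.89, 10.90 and 10.90 with VAAM and 10.90, 10.90 and 10.90 with water. Liver stood at 6.11 on all 14 arrays. Every WAT array was thus far above every BAT and liver array, with BAT minus WAT at -4.77 and WAT minus liver at 4.78. BAT and liver differed in *Hoxc8* by 0.02, a difference that turned to -0.03 when each array was centred on its median.

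*Hoxc8* is a known target of miR-196, a microRNA family encoded inside the *Hox* clusters themselves. The arrays used here were not analysed for mature microRNAs, and the sequences are shown to place the family beside the gene that the fats differed in most. In RefSeq (GRCm38.p6) miR-196a-5p is encoded at chr15:102973365-102973386 on the plus strand, between *Hoxc10* and *Hoxc9*, and again in the *Hoxb* cluster, and miR-196b-5p at chr6:52230129-52230150 on the minus strand in the *Hoxa* cluster. Bases 2 to 8, the seed, are in capitals and are shared.
mmu-miR-196a-5p: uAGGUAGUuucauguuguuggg
mmu-miR-196b-5p: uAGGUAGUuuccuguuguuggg

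Across all 33 genes, 0 were higher and 1, *Hoxc8*, was lower in BAT than in WAT, where 1.78% and 5.29% of all probe sets were. Between BAT and liver 5 were higher (*Hoxa5*, *Hoxa3*, *Hoxd8*, *Hoxc5* and *Hoxc4*) and 0 were lower, where 4.98% and 4.55% of all probe sets were. Between WAT and liver 9 were higher, those 5 together with *Hoxc8*, *Hoxa7*, *Hoxd9* and *Hoxb4*, and 0 were lower, where 9.63% and 3.64% of all probe sets were. The liver arrays serve in both of these comparisons. At a difference of at least 0.5, 7 genes were lower in BAT than in WAT (17.9% of all probe sets), 11 were higher in BAT than in liver (13.9%) and 15 were higher in WAT than in liver (23.8%). At 2 these counts were 1 (0.679%), 1 (1.29%) and 3 (2.19%). The split between higher and lower depends on the scaling: after quantile normalization of all arrays 2.69% and 3.13% of all probe sets were higher and lower for BAT minus WAT, 5.06% and 4.73% for BAT minus liver, and 6.19% and 4.86% for WAT minus liver. The *Hox* counts then were 0 and 1, 5 and 0, and 6 and 0. The median *Hox* difference was -0.16 for BAT minus WAT, 0.18 for BAT minus liver and 0.49 for WAT minus liver, beside medians of -0.09, 0.04 and 0.12 over all probe sets. After quantile normalization the *Hox* medians were 0.02, 0.15 and 0.23, and those of all probe sets were 0.02, 0.02 and -0.01. In bulk tissue fewer cells of a type and less RNA per cell cannot be told apart.

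**Figure D1:**
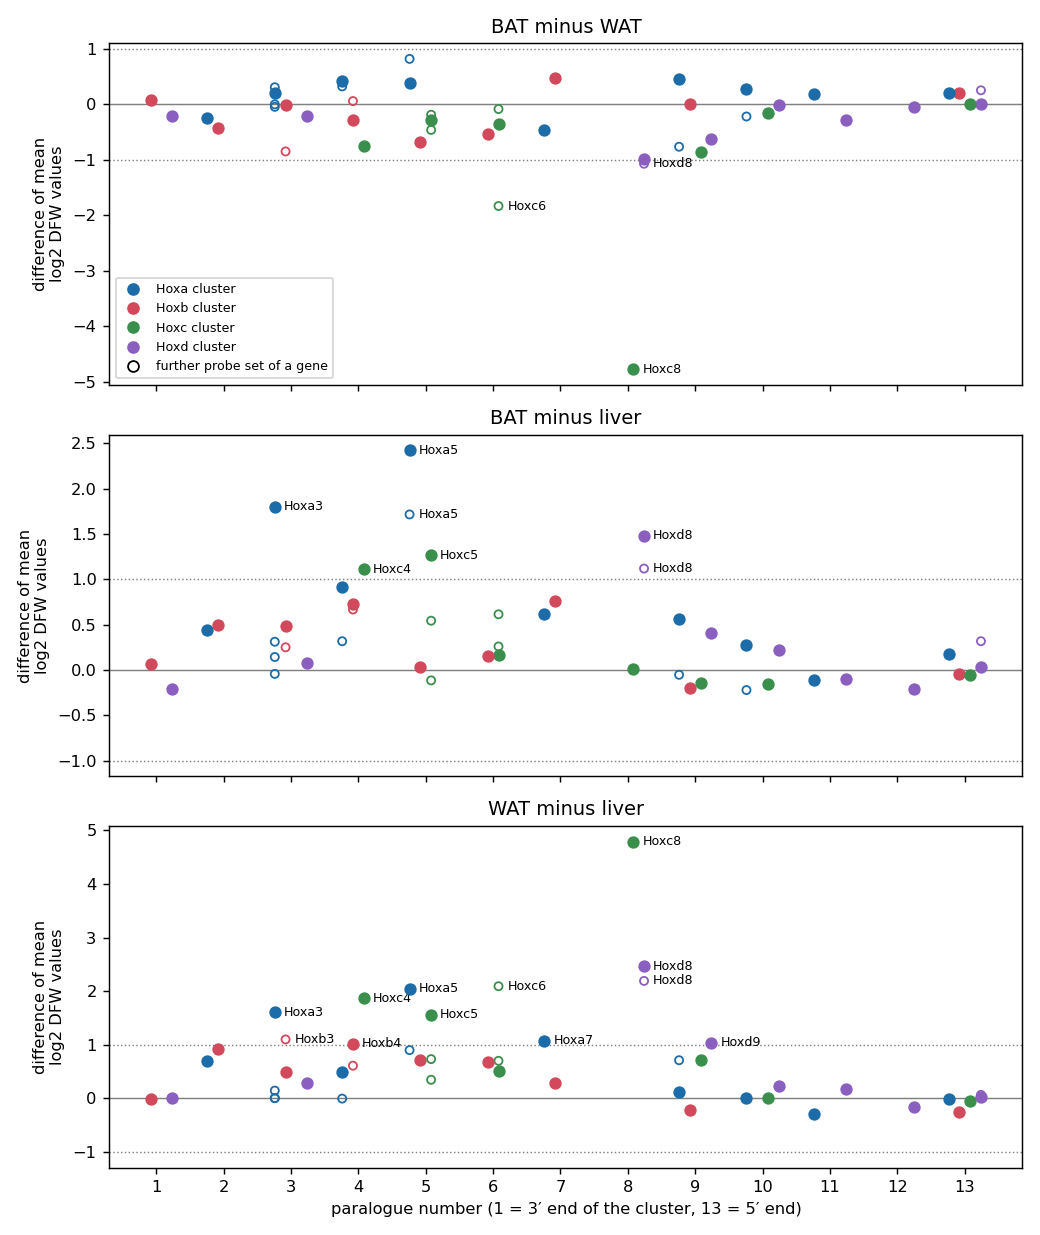
Difference of the tissue means (vertical axis, deposited log2 values; 14 arrays a tissue) of each *Hox* probe set against its paralogue number, with colours for the 4 clusters, filled points for the probe set that represents a gene and open points for further probe sets of it. Dotted lines mark differences of 1 and -1. *Hoxc8* stands alone at -4.77 for BAT minus WAT, and the differences from liver are largest between paralogue groups 3 and 9 and at most 0.32 in size in groups 10 to 13.

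The genes were grouped by position along the cluster, with the share of all probe sets that were above liver as the background (55.5% in BAT and 62.8% in WAT as deposited, 52.5% and 48.7% after quantile normalization, and 49.5% and 44.0% after median centring). Of 9 central genes (paralogue groups 5 to 8), 9 were above liver in BAT and 9 in WAT, with median differences of 0.61 and 1.07. These counts held after quantile normalization, whereas median centring left 7 of 9 in BAT, with *Hoxb5* and *Hoxc8* turned below liver, and 9 of 9 in WAT. Of the 9, 3 passed the rule in BAT and 5 in WAT, beside 4.98% and 9.63% of all probe sets. Of 10 anterior genes (groups 1 to 4), 9 were above liver in each fat (8 in WAT under either rescaling), with medians of 0.50 in BAT and 0.60 in WAT, and 2 and 3 passed the rule. Of 14 posterior genes (groups 9 to 13), 6 were above liver in BAT (5 after median centring) and 8 in WAT (4 after quantile normalization and 3 after median centring), the medians were -0.05 and 0.00, and 0 and 1 passed. The background counts probe sets. Of 15 central probe sets, 14 were above liver in BAT (12 after median centring) and 15 in WAT. Of 16 anterior ones it was 14 in each fat (11 in WAT after quantile normalization and 10 after median centring). Of 17 posterior ones it was 7 in BAT (6 after median centring) and 11 in WAT (6 and 4 under the 2 rescalings). As a description over the 33 genes, which share arrays and lie in 4 clusters, Spearman's rho of the paralogue number was -0.42 with the difference BAT minus liver, -0.50 with WAT minus liver and 0.19 with BAT minus WAT.

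By cluster, the sign of BAT minus WAT was counted beside that of all probe sets, of which 37.0% were higher and 63.0% lower in BAT as deposited, 52.3% and 47.7% after quantile normalization, and 55.2% and 44.8% after median centring. In the *Hoxc* cluster all 7 measured genes were lower in BAT than in WAT, with a median of -0.35, among them *Hoxc13* with a difference of -0.00023. After quantile normalization 5 of 7 were lower, with a median of -0.11, and 6 of 7 after median centring. In the *Hoxd* cluster 7 of 8 were lower in BAT (6 of 8 after quantile normalization and 5 of 8 after median centring). In the *Hoxa* cluster 7 of 9 were higher in BAT under each of these scalings, with a median of 0.20 as deposited, 0.31 after quantile normalization and 0.34 after median centring. Over probe sets it was 10 of 16, since *Hoxa3*, *Hoxa9* and *Hoxa10* each have probe sets of both signs. *Hoxb* genes were split, with 4 of 9 higher in BAT (6 of 9 after quantile normalization and 5 of 9 after median centring).

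*Hoxa5*, which patterns the neck and upper chest and is needed for lung formation, was the *Hox* gene farthest above liver in BAT. Its lowest, median and highest values were 9.16, 9.16 and 9.16 in BAT of VAAM mice and 9.16, 9.16 and 9.16 in BAT of water mice, and 8.79 on every WAT array against 6.74 on every liver array. The differences were 2.42 for BAT minus liver, 2.05 for WAT minus liver and 0.37 for BAT minus WAT. A further *Hoxa5* probe set kept this order, at 8.89 in BAT, 8.08 in WAT and 7.18 in liver. *Hoxa3*, which is needed for the thymus and the parathyroid glands, had the same order, with 7.94 on each BAT array, 7.74 on each WAT array and 6.14 on each liver array. Its differences were 1.80, 1.60 and 0.20 in the same comparisons. This rests on a single probe set, since the other 3 of *Hoxa3* differed between tissues by no more than 0.31. For BAT minus liver 1 of them was below 0, at -0.04.

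*Hoxd8*, a trunk gene of the *Hoxd* cluster, was highest in WAT. Its lowest, median and highest values were 7.83, 7.83 and 7.83 in BAT with VAAM and 7.83, 7.83 and 7.83 with water, whereas in WAT they were 8.81, 8.82 and 8.86 with VAAM and 8.81, 8.81 and 8.84 with water. Liver was at 6.35 throughout. BAT was 1.48 and WAT 2.47 above liver, and the difference BAT minus WAT of -0.99 lay just outside the threshold, while a further probe set gave -1.07. *Hoxc4* and *Hoxc5*, neighbours at the 3′ end of the *Hoxc* cluster that act in the neck and upper trunk, had the same order of tissues. *Hoxc4* stood at 7.68 in BAT, 8.43 in WAT and 6.57 in liver. *Hoxc5* stood at 7.53 in BAT, 7.82 in WAT and 6.27 in liver. All 14 arrays of a tissue had these values to 2 decimals in both genes. BAT minus WAT was -0.75 for *Hoxc4* and -0.29 for *Hoxc5*, the second of which turned to 0.02 after quantile normalization. The 3 probe sets of *Hoxc5* disagreed in sign for BAT minus liver, with 2 above 0 and 1 below, from -0.12 to 1.26. Their mean was 0.56 above liver in BAT and 0.88 in WAT and did not pass.

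The genes that passed only in WAT against liver lay near the threshold, apart from *Hoxc8*. *Hoxa7*, which acts in the thoracic skeleton, averaged 7.56 in BAT, 8.02 in WAT and 6.95 in liver, so that WAT minus liver was 1.07. *Hoxd9*, a gene of the lower trunk and limbs and the sole posterior gene to pass, averaged 6.83 in BAT, 7.45 in WAT and 6.42 in liver, with WAT minus liver at 1.04. *Hoxb4*, known for its role in blood stem cells, averaged 7.51 in BAT, 7.80 in WAT and 6.78 in liver, with WAT minus liver at 1.02. All 3 fell below 1 under quantile normalization (0.74, 0.81 and 0.71) and median centring. Just outside stood *Hoxb2*, a hindbrain gene, at 0.92 for WAT minus liver, and *Hoxa4* at 0.91 for BAT minus liver.

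**Figure D2:**
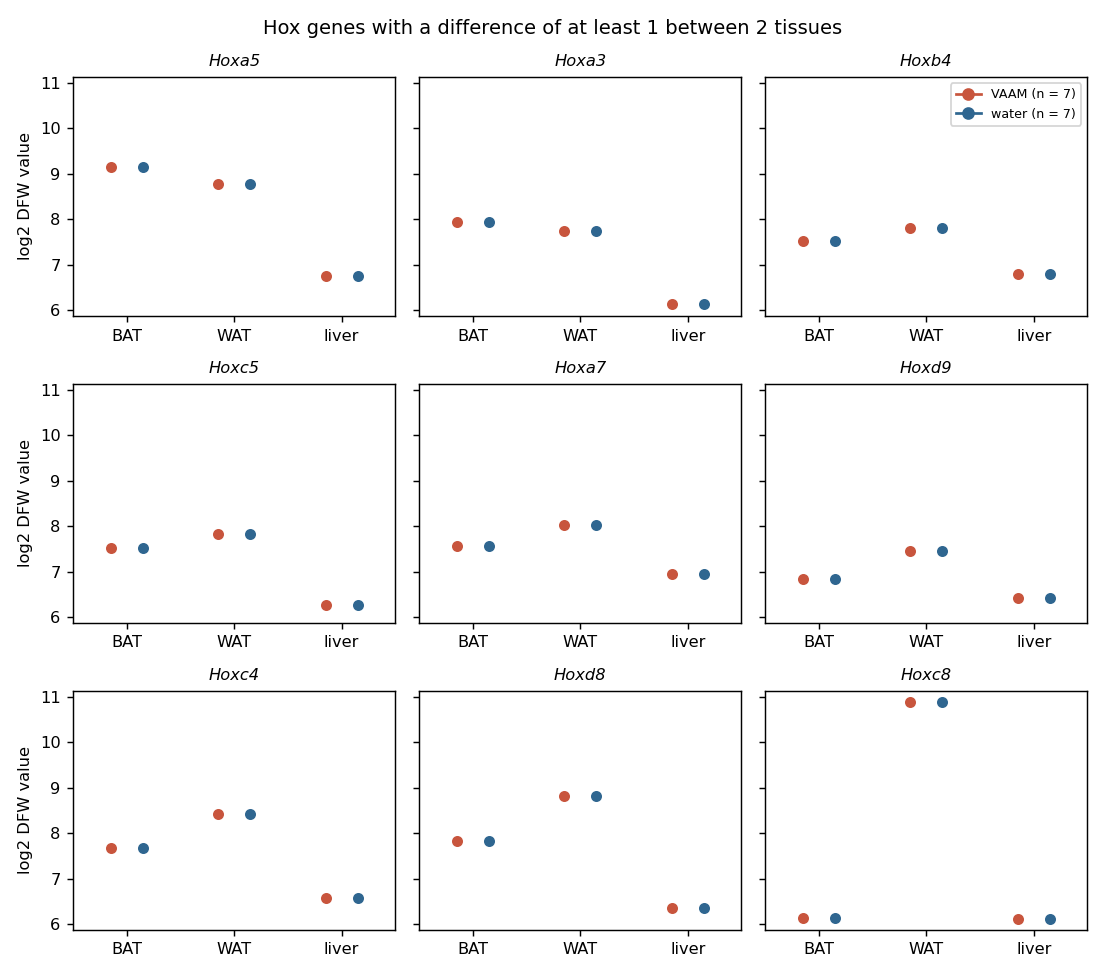
Deposited log2 values (vertical axis, the same in all panels) of the 9 *Hox* genes with a difference of at least 1 between 2 tissues, in BAT, WAT and liver from left to right, with VAAM mice left of water mice. Points are medians and lines run from the lowest to the highest of 7 mice, and in most groups the line is shorter than the point is wide. All 9 genes are higher in WAT than in liver, and only *Hoxc8* has BAT at the level of liver.

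Among the other genes, *Hoxc9*, which sets thoracic identity in motor neurons, had 6.91 in BAT, 7.76 in WAT and 7.05 in liver, a difference of -0.86 for BAT minus WAT. *Hoxb5* and *Hoxb6* were also nearer in BAT to liver than to WAT, with 6.49 and 6.64 in BAT, 7.17 and 7.18 in WAT and 6.46 and 6.49 in liver, and *Hoxb5* in BAT fell below liver when each array was centred on its median. *Hoxb7* was highest in BAT, at 6.72 in BAT, 6.26 in WAT and 5.97 in liver. The 2 probe sets of *Hoxa9*, a gene of the lower trunk known for its part in leukaemia, disagreed, with BAT minus WAT at 0.45 in the one and -0.77 in the other. *Hoxc6* has 3 probe sets, of which 1 was at 6.42 in BAT, 8.26 in WAT and 6.16 in liver (BAT minus WAT -1.83), while the other two differed between the fats by -0.35 and -0.09. Over probe sets rather than genes 3 of 48 were lower in BAT than in WAT (*Hoxc8* and 1 each of *Hoxc6* and *Hoxd8*), beside 5.29% of all probe sets. In the same count 7 were higher in BAT than in liver (4.98% of all) and 12 were higher in WAT than in liver (9.63% of all), the last including a probe set of *Hoxb3* at 1.10.

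Genes of groups 10 to 13 act in the hind limb, the tail and the urogenital tract. Of 10 such genes measured, 0 reached a difference of 0.5 in any comparison. Differences ran from -0.28 to 0.27 for BAT minus WAT, -0.21 to 0.28 for BAT minus liver and -0.30 to 0.24 for WAT minus liver. The median size of a difference over all probe sets was 0.22, 0.23 and 0.28 in the same comparisons. *Hoxc10*, known for high levels in hind limb tissues, had 6.22 in BAT, 6.38 in WAT and 6.37 in liver. *Hoxc13*, a hair and nail gene, had 6.30 in BAT, 6.30 in WAT and 6.36 in liver. *Hoxa13* and *Hoxd13*, the genes of the digits and the genital tract, had 6.53 and 6.31 in BAT, 6.33 and 6.30 in WAT and 6.35 and 6.28 in liver. The files hold no detection calls, so whether such values lie above background is not known here. The genes with liver above both fats by most were *Hoxb9*, *Hoxd12* and *Hoxa11*, for which the nearer fat was below liver by only 0.20, 0.16 and 0.11 (nearer fat minus liver -0.20, -0.16 and -0.11). The arrays of BAT and WAT did not overlap for 47 of 48 *Hox* probe sets, the exception being *Hoxb9*, and for 99.6% of all probe sets.

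Promoters are shown for the genes that passed the rule against liver in both fats and that the RefSeq table holds, *Hoxa5*, *Hoxa3*, *Hoxc4* and *Hoxd8*. The table matched 19 of the 33 genes with 21 promoters, each from 250 bases before to 50 after a start site, and *Hoxc8* and *Hoxc5* were not among them. *Hoxa5* is at chr6:52204538-52204837 and *Hoxa3* at chr6:52213018-52213317 on the minus strand, and *Hoxc4* at chr15:103034145-103034444 on the plus strand and *Hoxd8* at chr2:74704365-74704664 on the plus strand (GRCm38.p6), each printed 5′ to 3′ along the gene. Capitals mark CCAAT on either strand.
Hoxa5: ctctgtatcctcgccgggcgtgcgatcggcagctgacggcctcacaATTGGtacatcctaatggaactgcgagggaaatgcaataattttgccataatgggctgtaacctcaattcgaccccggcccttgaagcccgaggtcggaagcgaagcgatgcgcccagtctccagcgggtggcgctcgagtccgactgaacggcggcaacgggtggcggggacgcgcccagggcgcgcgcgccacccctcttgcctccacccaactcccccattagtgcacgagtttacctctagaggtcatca
Hoxa3: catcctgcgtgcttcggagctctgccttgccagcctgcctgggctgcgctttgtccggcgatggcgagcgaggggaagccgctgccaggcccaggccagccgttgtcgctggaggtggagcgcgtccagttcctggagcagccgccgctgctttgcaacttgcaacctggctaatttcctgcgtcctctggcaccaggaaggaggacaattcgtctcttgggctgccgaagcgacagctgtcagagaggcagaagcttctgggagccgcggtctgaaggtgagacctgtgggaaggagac
Hoxc4: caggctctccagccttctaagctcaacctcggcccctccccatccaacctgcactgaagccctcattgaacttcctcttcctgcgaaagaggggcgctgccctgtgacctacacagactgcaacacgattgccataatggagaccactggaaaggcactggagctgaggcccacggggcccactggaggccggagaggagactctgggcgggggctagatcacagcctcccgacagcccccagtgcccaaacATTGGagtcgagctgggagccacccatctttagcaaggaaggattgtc
Hoxd8: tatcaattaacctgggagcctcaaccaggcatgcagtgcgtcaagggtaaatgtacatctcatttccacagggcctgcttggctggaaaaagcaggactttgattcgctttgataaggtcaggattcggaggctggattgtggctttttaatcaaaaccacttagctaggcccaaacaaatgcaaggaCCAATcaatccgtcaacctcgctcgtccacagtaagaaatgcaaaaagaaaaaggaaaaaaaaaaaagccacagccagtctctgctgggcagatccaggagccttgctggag

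Of the 4, *Hoxa5*, *Hoxc4* and *Hoxd8* hold CCAAT and *Hoxa3* does not, where 12 of 21 *Hox* promoters and 37.4% of all 32851 promoters of this length hold it. *Hoxa5* has 29 CpG pairs, *Hoxa3* 20, *Hoxc4* 9 and *Hoxd8* 6, beside a median of 15 over the *Hox* promoters and 7 over all. None of the 4 holds TGATNNAT, a site that Pbx and Hox proteins can bind together, which 3 of 21 *Hox* promoters (*Hoxa2*, *Hoxb1* and *Hoxd11*) and 8.85% of all promoters hold on either strand. TAATTA, a core that homeodomains bind, was in 2 of 21 (both of *Hoxd11*) and in 5.29% of all.

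The partners of Hox proteins and other positional genes were counted from fixed lists by the same rule, which 1.78% of all probe sets passed as higher and 5.29% as lower for BAT minus WAT, 4.98% and 4.55% for BAT minus liver, and 9.63% and 3.64% for WAT minus liver. Of 9 genes for TALE homeodomain proteins (Pbx, Meis and Pknox), which bind DNA together with Hox proteins, 8 were measured. *Meis3* was higher in BAT than in WAT, at 7.67 in BAT and 6.53 in WAT, and *Meis1* was lower, at 6.83 in BAT and 7.84 in WAT, against 6.69 for *Meis1* in liver, where WAT minus liver also passed. Of 14 measured Polycomb and Trithorax genes, which hold *Hox* chromatin silent or active, 0 passed the rule between the fats. *Kdm6b*, a demethylase of the Polycomb mark, was higher in BAT than in liver by 1.11. The median of this list was -0.35 for BAT minus WAT, 0.22 for BAT minus liver and 0.57 for WAT minus liver. Over all probe sets the medians were -0.09, 0.04 and 0.12. Of 13 measured homeobox genes related to *Hox*, 0 passed in any comparison. Of 17 measured other positional regulators, *Zic1*, a known marker of classical brown fat, was higher in BAT (7.43) than in WAT (5.70), and *Tcf21* (BAT minus WAT -2.37), *Wt1* (-1.43) and *Nr2f2* (-1.03) were lower. Against liver, *Zic1* (1.66) and *Meox2*, a homeobox gene of the somites (2.47), were higher and *Nr2f2* (-1.05) and *Tcf21* (-1.38) lower in BAT, and *Meox2* (2.72) and *Wt1* (1.44) were higher in WAT. Of 6 listed non-coding RNAs of the clusters 3 were measured, and *Hoxd3os1*, which is transcribed from the *Hoxd* cluster, stood at 6.58 in BAT, 8.29 in WAT and 6.01 in liver, and passed for BAT minus WAT and for WAT minus liver. Some lists of markers of other cells were also highest in WAT. A list of 5 mesothelial markers, *Wt1* among them, had mean levels of 6.47 on each BAT array, 8.11 to 8.13 in WAT and 6.47 in liver, and 4 fibroblast and progenitor markers had 9.98 to 9.99 in BAT, 11.5 in WAT and 7.31 to 7.32 in liver. A list of 5 leukocyte markers had mean levels of 7.14 to 7.21 in BAT and 7.66 in WAT. Within it *Cd3e* went the other way, at 7.78 in BAT and 7.25 in WAT. The 4 endothelial markers had no common direction between the fats. *Cdh5* averaged 9.61 in BAT and 9.46 in WAT and *Tek* 8.94 and 8.79. *Kdr* averaged 9.53 in BAT and 9.86 in WAT and *Pecam1* 7.872 and 7.898. The part of any of these cells in the *Hox* differences was not tested.

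Some *Hoxb* and *Hoxd* probe sets differed between single WAT mice. Over 14 WAT arrays 7 of 48 *Hox* probe sets had an SD of at least 0.005, as did 2.43% of all probe sets, and these were *Hoxb2*, *Hoxb3*, *Hoxb6*, *Hoxb9*, *Hoxd9* and both of *Hoxd8*. By cluster these were 4 of 11 *Hoxb* and 3 of 10 *Hoxd* probe sets, and 0 of 16 *Hoxa* and 0 of 11 *Hoxc* probe sets. No *Hox* probe set reached this SD in BAT or liver. *Hoxb6*, which acts in the trunk and limb, varied most, with an SD of 0.12. Its lowest, median and highest values in WAT were 7.10, 7.17 and 7.47 with VAAM and 7.04, 7.12 and 7.40 with water, and the highest of each group was mouse 1. VAAM mouse 1 and water mouse 1, which are different animals, were the 2 highest of the 14 WAT arrays in 9 of 11 *Hoxb* and 5 of 10 *Hoxd* probe sets, and in 0 of 16 *Hoxa* and 0 of 11 *Hoxc* probe sets, where 7.4% of all probe sets had these 2 mice highest. All 7 probe sets with an SD of at least 0.005 were among those with these 2 mice highest. The other probe sets so ranked had smaller SDs, down to 2.3e-05 for a probe set of *Hoxb3*. *Hoxd9* was 7.49 and 7.48 in these 2 mice and 7.45 to 7.46 in the other 12 mice. *Hoxc8* and *Hoxa5* were 10.89 to 10.90 and 8.79 in all 14. These mice were singled out after the values had been seen.

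The same animals stood highest in markers of the epididymis, the duct beside the testis. The mean level of 10 measured epididymis markers of 12 listed was 11.7 in WAT of VAAM mouse 1, 10.6 in WAT of water mouse 1 and 6.94 to 9.49 in the other 12, against 6.36 on every BAT array and 6.48 on every liver array. *Lcn5*, an epididymal lipocalin, ranged over 6.32 to 18.9 in WAT. Not all of the 10 varied so, since *Defb1* ranged over 7.19 to 7.26 and *Ros1* over 6.24 to 6.36, beside *Ros1* means of 6.33 in BAT and in liver. Among the WAT arrays the mean level of 8 simple epithelium markers was also highest in these mice, at 7.74 and 7.60. It was 6.40 on every BAT array and higher still on every liver array, at 8.29. Within this list *Cdh1* ranged over 6.02 to 7.54 in WAT, whereas *Epcam* stayed at 7.379 to 7.380. The part of these cells in the *Hoxb* and *Hoxd* values was not tested. Without the pair of mice, *Hoxb6* was -0.49 for BAT minus WAT instead of -0.53, and the counts of 1 *Hox* gene lower in BAT than WAT and 9 higher in WAT than liver did not change.

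**Figure D3:**
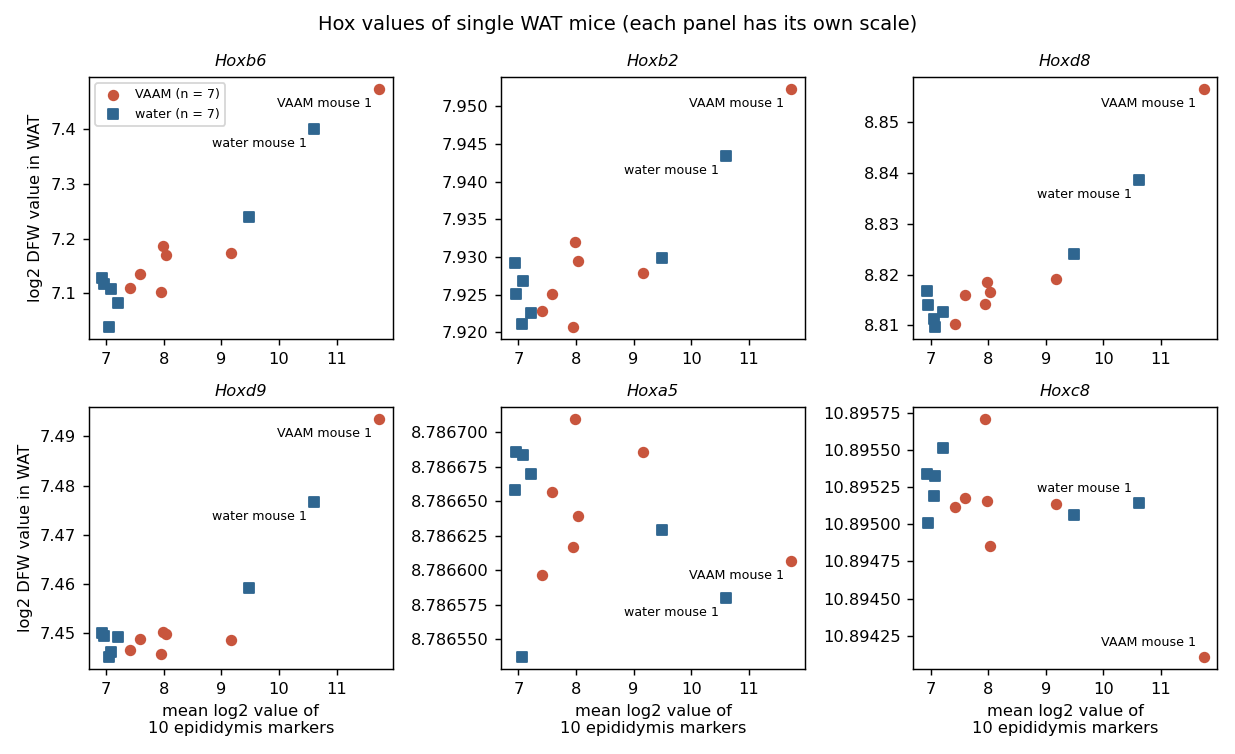
Deposited log2 values in WAT (vertical axis, a scale of its own in each panel) of 6 *Hox* genes against the mean log2 value of 10 epididymis markers (horizontal axis) in 14 mice, circles for VAAM and squares for water. VAAM mouse 1 and water mouse 1 are highest in *Hoxb6*, *Hoxb2*, *Hoxd8* and *Hoxd9*, while *Hoxa5* and *Hoxc8* span less than 0.01.

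VAAM against water was tested within each tissue to ask whether the amino acids moved any *Hox* gene. Limma with Benjamini-Hochberg adjustment over all probe sets called 0 of 33 genes in BAT, 0 in WAT and 0 in liver, where it called 0.0% of all probe sets. At an unadjusted p under 0.05, 1 gene in BAT (*Hoxa7*), 0 in WAT and 4 in liver (*Hoxb13*, *Hoxb1*, *Hoxb5* and *Hoxa7*) passed, all lower with VAAM, where 2.93% of all probe sets were lower in BAT, 3.76% passed in either direction in WAT and 4.92% were lower in liver. A single fit over the 3 tissues called 1 *Hox* probe set in liver, not one that represents a gene, and 1.53% of all. Because the scale is compressed, differences are given as multiples of the within-group SD. The number of arrays limits the precision, with a standard error of 0.53 to 0.60 SD.

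*Hoxa7* in BAT was lower with VAAM by 1.30 ± 0.60 SD (-1.30, SE, n = 7 each), with the median of the water mice exceeded by 1 of 7 VAAM mice, a two-sided exact permutation p of 0.0175 and a limma adjusted p of 0.946. In liver *Hoxb13*, a gene of the tail and prostate, gave -1.25 ± 0.59 SD (exact p 0.0204, limma adjusted p 0.512, 1 of 7 mice above) and *Hoxb1*, a hindbrain gene, gave -1.25 ± 0.59 SD (exact p 0.0385, limma adjusted p 0.520, 0 of 7). *Hoxb5* in liver gave -1.15 ± 0.58 SD (exact p 0.0548). In WAT the genes with the smallest p were *Hoxc13* at 0.73 ± 0.55 SD (exact p 0.20), *Hoxd1* at 0.71 ± 0.55 SD (exact p 0.20) and *Hoxd3* at 0.65 ± 0.55 SD (exact p 0.270). These exact p values are not adjusted for the 33 genes, and none of the genes passed after adjustment over all probe sets. On the deposited scale no *Hox* gene differed between VAAM and water by more than 0.00061 in BAT, 0.033 in WAT and 3.31e-05 in liver.

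Rank products, which assume that all probe sets have the same spread, called *Hoxb6* and *Hoxd8* higher with VAAM in WAT at a false discovery rate under 0.05, where 1.99% of all probe sets were called higher and 1.54% lower. They called 0 *Hox* genes in BAT and liver, where 2.15% and 2.69% of all probe sets were called higher and 2.29% and 1.44% lower. *Hoxb6* averaged 7.19 in WAT of VAAM mice and 7.16 in WAT of water mice, a difference of 0.033, with an exact p of 0.589. Without WAT VAAM mouse 1 the difference turned to -0.013, and for *Hoxd8* it turned to -0.0023, against 0.0035 with all mice. The effect of VAAM in SD units differed between tissues for 0 of 33 genes by limma interaction tests, with smallest adjusted p values of 0.904 for BAT against WAT, 0.387 for BAT against liver and 0.388 for WAT against liver, where 0.02%, 0.153% and 0.249% of all probe sets passed. At an unadjusted p under 0.05 the same tests gave 1, 4 and 1 genes, and 5.18%, 8.37% and 10.1% of all probe sets.

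**Figure D4:**
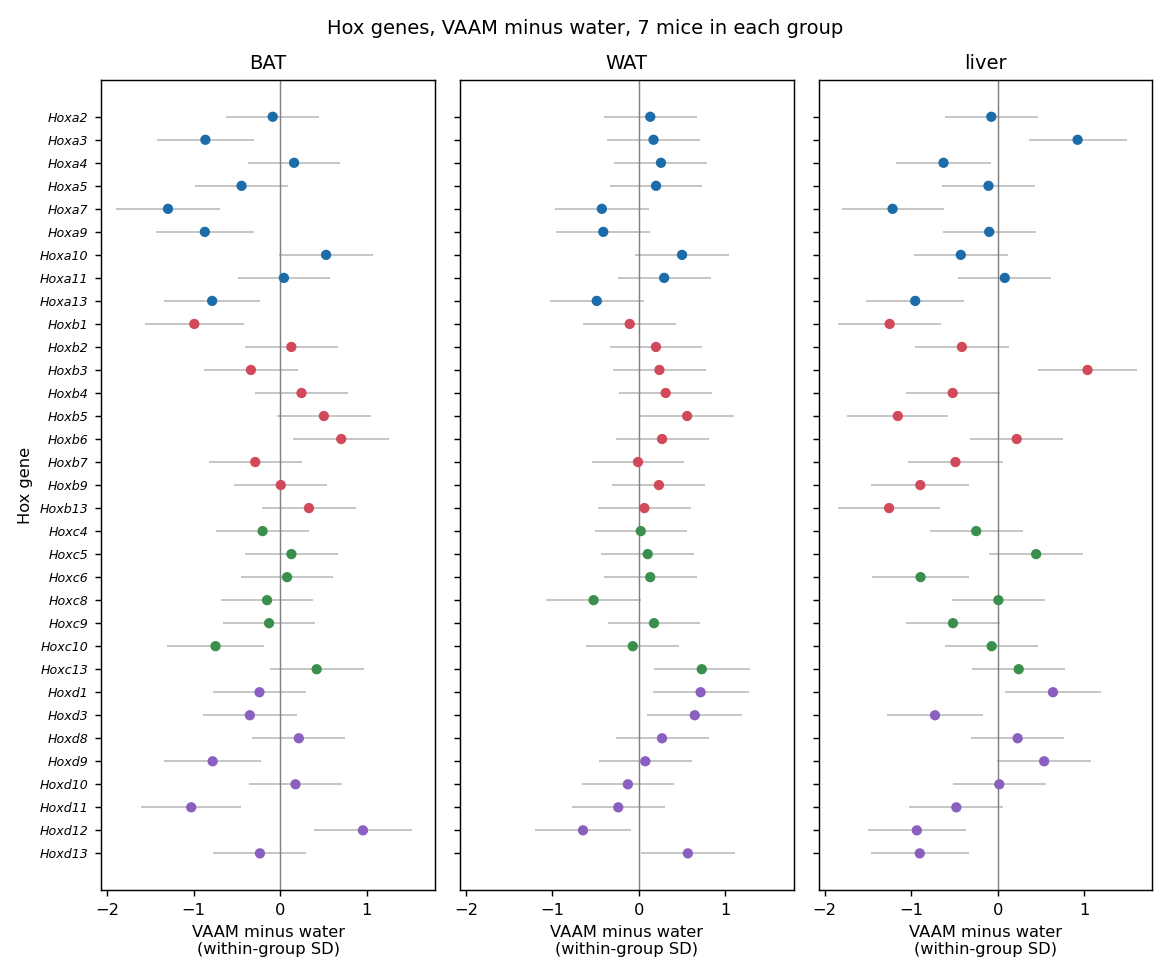
VAAM minus water for 33 *Hox* genes (rows, coloured by cluster) in BAT, WAT and liver, in units of the SD within groups (horizontal axis, the same in all panels), with the standard error as bars and 7 mice in each group. The differences lie between -1.30 and 1.04 SD, and the 4 in liver that passed at an unadjusted p under 0.05 are all below 0.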

How the data were processed

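RNA of BAT, WAT and liver from 7 VAAM and 7 water mice was measured on 42 Affymetrix arrays, 14 a tissue. The deposited values are the authors' summaries in R by DFW, the distribution free weighted method, and were used as log2 values per probe set, although no source used here gives the base of the log. The R version in the submitters' processing notes is 2.7.2. In most probe sets the spread within a tissue is far smaller than the differences between tissues. A separate summary of each tissue would leave them so, which the sources used here do not state. Tissue and summary then cannot be told apart, so differences between tissues were read by size. Some probe sets spread widely within a tissue, such as *Lcn5* over 6.32 to 18.9 in WAT and *Acta1* over 7.05 to 15.1 in BAT. Whether the scale between tissues is itself distorted was not tested. This scale was seen after the tests had been chosen, and the tests were kept.

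Of 45101 probe sets, 64 controls were left out. Of the others, 34945 name 1 gene, 932 several and 9160 none, and 3 with a *Hox* gene among several were left out. A gene was represented by its probe set with the highest mean over all arrays. Groups were compared with limma 3.58.1 in R 4.3.3 (default prior, Benjamini-Hochberg), over 42 arrays for tissues and 14 for VAAM against water. Rank products over 49 pairs of arrays with 20 permutations, exact permutation tests over 3432 splits (two-sided) and the counts used pandas 2.3.3, scipy 1.17.1 and numpy 2.4.6 under Python 3.11.15, and figures matplotlib 3.10.9. The limma fits were tested on simulated data. P values of VAAM against water measure the spread between mice that is left after the summary. Those between tissues were not read alone, because the summary compresses that spread. The main fits between tissues also treat the 42 arrays as independent.

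Genes were named by rule where they passed between tissues, where the fat nearer to liver differed from it most, and for the 3 smallest p values of VAAM against water in each tissue. Further genes, such as *Hoxc9*, *Hoxb7*, *Hoxc6* and *Hoxc10*, were named outside these rules with their values known. The rest are described as groups. The members and lists were chosen with earlier results of these data known. Alternatives were quantile normalization, median centring, a replicate block, probe sets above the median, the mean of a gene's probe sets, 1 diet, 2 tissues, a trend and robust prior, other thresholds, 1 fit over all tissues, and leaving out arrays with a component score over 2.2 SD. Leaving out WAT VAAM mouse 1 and WAT water mouse 1 was chosen after the data had been seen. Same-numbered VAAM and water mice are different animals and were not treated as pairs. Deviations of their arrays correlated by -0.19 to 0.48, over 0.1 in 7 of 21 pairs, with the highest value in WAT for number 1. Differently numbered arrays were not compared, so whether handling by number linked them was not tested. The study's methods collect the 3 tissues from each mouse, but no source used here states that a number marks the same mouse in each tissue. Deviations of same-numbered arrays of 2 tissues correlated by -0.04 to 0.30, over 0.1 in 23 of 42 pairs (11 of 14 for BAT and WAT, 7 of 14 for BAT and liver, 5 of 14 for WAT and liver), and the replicate block changed no count of *Hox* genes. Arrays of the mice given the second amino acid mixture of the study were not analysed here.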

Additional observations from a re-analysis of the deposited data

Results flagged for a closer look

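The 19 *Hox* genes named by rule for their differences between tissues or diets gave 114 groups of 7 mice. *Hoxb6* and *Hoxb2* were not among them, so the share below does not cover all *Hox* genes. In 16 of the 114 groups (14%) the highest or lowest mouse lay far from the others. This was measured as its gap to the nearest mouse divided by the range of the group. For independent, normally distributed values such a gap would come in about 1 in 20 groups. These genes share arrays and their values are compressed, so the 14% cannot be judged by that rate. In WAT, VAAM mouse 1 was far above the others in *Hoxd9* (0.904), *Hoxb4* (0.810), *Hoxd8* (0.808), *Hoxd3* (0.736), *Hoxb1* (0.725), *Hoxd1* (0.674) and *Hoxb9* (0.603), and far below them in *Hoxc4* (0.788). WAT water mouse 1 was far above the other water mice in *Hoxb4* (0.596) and *Hoxb9* (0.580). These 10 of the 16 belong to the pair of mice that were highest in epididymis markers, and the sizes are small, as in *Hoxd9*, with 7.49 in VAAM mouse 1 and 7.45 in the nearest VAAM mouse.

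In BAT, VAAM mouse 3 was lowest in *Hoxa7* (0.580), VAAM mouse 6 highest in *Hoxb9* (0.731) and water mouse 7 lowest in *Hoxc8* (0.590). In liver, VAAM mouse 5 was lowest in *Hoxa11* (0.622), VAAM mouse 1 lowest in *Hoxb13* (0.610) and water mouse 7 highest in *Hoxd11* (0.613).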

How the results depend on the processing

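The counts of *Hox* genes between tissues were the same with the replicate block (1 lower in BAT than WAT, 5 higher in BAT than liver, 9 higher in WAT than liver, and 0 for VAAM against water in each tissue), with 1 diet alone, with the trend and robust prior and without the arrays that stood apart. They moved with the rule for size. At a difference of at least 0.5 they were 7 lower for BAT minus WAT, 11 higher for BAT minus liver and 15 higher for WAT minus liver, and at 2 they were 1 for BAT minus liver and 3 for WAT minus liver. By adjusted p alone 12 were higher and 21 lower for BAT minus WAT, 24 and 9 for BAT minus liver, and 26 and 7 for WAT minus liver. Quantile normalization or median centring left 6 higher for WAT minus liver. With the mean of a gene's probe sets 2 were lower for BAT minus WAT and 3 higher for BAT minus liver. For WAT minus liver *Hoxc5* no longer passed by this mean, so the 9 genes did not all hold. Quantile normalization turned the median BAT minus WAT to 0.0177, *Hoxc5* to 0.0248 and *Hoxb4* to 0.0250, and median centring turned *Hoxc8* in BAT minus liver to -0.0291. For VAAM against water, rank products called 2 genes higher in WAT. Quantile normalization turned limma's statistic to -1.46 for *Hoxc13* and -0.28 for *Hoxd1* in WAT and to 1.06 for *Hoxb13* in liver. Without WAT VAAM mouse 1, added after the data had been seen, *Hoxb6* and *Hoxd8* turned to -0.013 and -0.0023, and without WAT water mouse 1 they were 0.074 and 0.0069. The causes were not tested. The 7 mice a group limit the comparison of VAAM with water.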

Other observations

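Of the 3 probe sets that name more than a single gene, 1 of *Hoxd4* and *Hoxd3* had 6.78 in BAT, 7.49 in WAT and 7.52 in liver, and the other had 6.57 in BAT, 6.96 in WAT and 6.33 in liver. The probe set of *Hoxb8* and *Hoxb7* had 6.31 in BAT, 6.49 in WAT and 6.07 in liver. In BAT the mean level of 9 skeletal muscle markers ranged from 6.69 to 10.6 with VAAM and from 6.81 to 10.8 with water. *Hoxa5* was at 9.16 on every BAT array. A further probe set of *Hoxa9* had the highest SD of the *Hox* probe sets in BAT, at 0.0047. It ran from 6.01 in VAAM mouse 3 (muscle mean 6.89) to 6.03 in water mouse 1 (10.8). Both VAAM mouse 5 (muscle mean 9.92) and water mouse 5 (7.09) had 6.02. The part of muscle in these values was not tested.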
